A study of Mus musculus with 11 samples.

Results

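The genes described here are 8 genes of early B cell development, Vpreb1, Igll1, Cd79a, Cd79b, Rag1, Rag2, Pax5 and Ebf1, measured in mouse liver at 4 stages. They were chosen by name, and every probe carrying one of these names in the array design was taken, which gave 8 of 27962 genes or transcripts named on the array and 13 of its 41174 probes. Of these, 9 probes of 7 genes passed the filter on dim probes, as did 23525 of all probes. The 11 two-colour Agilent arrays were 3 of embryonic day 14 (E14), 3 of embryonic day 18 (E18), 2 of postnatal day 5 (P5, replicates 2 and 3) and 3 of postnatal day 56 (P56). The labels call them biological replicates of normal liver and name the cells as hepatoblasts at E14, immature hepatocytes at E18 and hepatocytes at P5 and P56. The methods speak both of whole livers and of isolated fetal cells, so which of these an embryonic array holds is not settled here. No strain, sex, number of animals or pooling is given in the array labels. On every array, liver RNA was in the Cy5 channel and commercial RNA of normal adult mouse liver, the common reference, in the Cy3 channel. No dyes were swapped.

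The mouse fetal liver is the main site of blood formation before birth, and B cells are made there until the bone marrow takes over. In a progenitor, EBF1 and PAX5 fix the B cell fate. The recombinase made of RAG1 and RAG2 cuts the immunoglobulin gene segments to be joined. A rearranged heavy chain then pairs with the surrogate light chain, made of the VPREB and IGLL1 (lambda 5) proteins, to form the pre-B cell receptor, which signals through CD79A and CD79B. The surrogate light chain is made only in precursors, whereas CD79A and CD79B stay on mature B cells.

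Values are log2(Cy5/Cy3) after background correction and loess normalization within each array, so 0 means the level of the adult reference where both channels detect the probe. A probe counted as detected in a channel where the scanner software marked it well above background. Igll1 A_52_P493519, both tested Rag1 probes and Ebf1 A_51_P188054 were not detected in Cy3 on any array, so their ratios near 0 do not give the adult level. An offset of 50 intensity units was added to both channels, which pulls the ratios of dim probes towards 0 and makes their fold changes too small. The precision is limited by the number of arrays. Spots well above background in Cy5 numbered 22027 to 25718 on the arrays of E14, E18 and P5 and 16790 to 23079 at P56. The 3 arrays of E14 and E18 replicate 1 were scanned together, as were E18 replicates 2 and 3, and P5 replicate 3 was scanned with the 3 arrays of P56, so that stage and scan largely coincide. The array of P5 replicate 3 stood apart. The background that the correction fitted there had a mean of -85.5 in Cy5 and -121 in Cy3, and that of P56 replicate 2 a mean of -24.5 and -46.9, against -7.52 to -1.12 on the other 9 arrays. On P5 replicate 3, 22 spots in Cy5 and 14 in Cy3 lay more than 10 units under their local background, the lowest at -2430 and -5445. Fitted without such spots, its background means were -5.8 and -3, and counts of calls that rest on P5 are therefore given with both fits.

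The probes are 60 bases long, and 5 of them are shown, namely the Igll1 probe that carried the change, the Cd79a probe that was not called, and 3 probes that were not detected on any array. Each of the 5 holds an open reading frame. Where a probe lies within its transcript was not determined here. They are written 5′ to 3′ in lower case as in the array files, on build mm7.

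Cd79a A_52_P651316, chr7:21688822-21689079, plus strand: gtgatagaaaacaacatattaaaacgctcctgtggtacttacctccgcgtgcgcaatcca
Igll1 A_52_P493519, chr16:16410682-16410741, minus strand: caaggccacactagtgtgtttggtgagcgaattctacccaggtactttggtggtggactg
Rag1 A_52_P646895, chr2:101495236-101495295, minus strand: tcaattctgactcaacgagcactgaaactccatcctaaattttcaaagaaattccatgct
Rag2 A_52_P259521, chr2:101483004-101483063, plus strand: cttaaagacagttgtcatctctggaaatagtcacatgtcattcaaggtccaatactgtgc
Pax5 A_51_P122855, chr4:44551296-44583850, minus strand: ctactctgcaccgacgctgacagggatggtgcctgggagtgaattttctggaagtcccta

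The Cd79a and Pax5 probes span 258 and 32555 bases of the genome and therefore align in more than one block. The Vpreb1 probe at chr16:16418147-16418206 and both Igll1 probes lie within one short stretch of chromosome 16. The Rag1 probes at chr2:101489372-101489431 and chr2:101489537-101489597 and the Rag2 probe are neighbours on chromosome 2, on opposite strands. The remaining probes read Cd79b at chr11:106420507-106420566, Pax5 at chr4:44538878-44538937 and Ebf1 at chr11:44961616-44961675 and chr11:44605869-44605928.

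Vpreb1 and Igll1 are neighbours and changed together, so the 250 bases before their RefSeq start sites on GRCm38.p6 are shown as well. Capitals mark the E box CANNTG, the letters bound by E2A, and the letters CCCNNGGG found at the core of EBF sites, searched on both strands.

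Vpreb1, chr16:16869256-16869505, minus strand: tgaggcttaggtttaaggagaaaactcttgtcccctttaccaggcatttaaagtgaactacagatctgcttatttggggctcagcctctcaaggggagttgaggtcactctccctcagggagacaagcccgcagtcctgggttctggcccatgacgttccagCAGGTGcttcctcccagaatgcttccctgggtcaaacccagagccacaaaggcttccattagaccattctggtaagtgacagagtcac
Igll1, chr16:16863986-16864235, minus strand: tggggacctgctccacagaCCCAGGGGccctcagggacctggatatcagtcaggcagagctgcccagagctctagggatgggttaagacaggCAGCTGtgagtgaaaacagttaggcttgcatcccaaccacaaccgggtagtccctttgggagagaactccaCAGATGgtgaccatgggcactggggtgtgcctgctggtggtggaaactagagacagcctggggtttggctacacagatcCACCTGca

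The Vpreb1 window held 1 E box and no CCCNNGGG, and the Igll1 window held 3 E boxes and 1 CCCNNGGG. Among 32841 windows of the same length before mouse gene starts, 66.2% held an E box and 11.8% held CCCNNGGG. Such windows were found for 7 of the 8 genes, and CCCNNGGG was absent from those of Cd79a, Rag1, Rag2, Pax5 and Ebf1. These matches describe the letters and were not tested for binding.

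From E14 to E18, Vpreb1, Igll1, Cd79b, Rag1, Pax5 and Ebf1 rose, though not in every probe of Igll1, Rag1, Pax5 and Ebf1. Cd79a was not called, and Rag2 was not detected on any array. The change was 15.2-fold for Vpreb1 and 4.39-fold for Cd79b, which were detected at both stages, whereas Igll1, Rag1, Pax5 and Ebf1 were not detected at E14, so their changes cannot be ranked against these. Of the 9 tested probes, 7 were higher at E18 and none was lower by limma with Benjamini-Hochberg adjustment over all probes. The tested Rag1, Pax5 and Ebf1 probes and Cd79a were detected on all arrays of E18 and of no other stage. They therefore passed the filter only through E18, which favours a rise in this count and in the median change. In this comparison 44.5% of all 23525 probes were called and 22.3% were called higher. The median change of the 9 probes was 1.28 on the log2 scale, against -0.023 over all probes tested. Across 5 ways of correcting the background, the offset of 50 gave the smallest log2 change for each of these 7 probes, and all 7 stayed called in each.

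Vpreb1, the variable-like chain of the surrogate light chain, had log2 ratios of 0.09, -0.12 and 0.11 at E14 and of 3.76, 4.08 and 4.02 at E18. Its Cy5 signal over local background was 28.3, 29.5 and 42.8 units at E14 and 2080, 2490 and 3110 units at E18. Every E18 array was far above every E14 array. The change was 3.93 on the log2 scale (SE 0.261, 95% confidence interval 3.36 to 4.5, limma adjusted p = 2.5e-07). Vpreb1 was detected in Cy5 on each of the 11 arrays. Vpreb2 is a nearly identical gene, so a part of this signal could come from it.

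Igll1, the constant-like chain of the surrogate light chain, was read by a pair of probes that differed. A_52_P493519 had log2 ratios of -0.07, 0.02 and 0.01 at E14, where it was not well above background on any array, and of 1.85, 1.64 and 2 at E18. The log ratios differed by 3.59-fold (log2 change 1.84, SE 0.126, limma adjusted p = 3.3e-07), and since E14 was undetected this fold is not exact. A_52_P273394, at chr16:16411851-16411910, had log2 ratios of -0.11 to 0.01 at E14 and -0.08 to -0.03 at E18, and was detected on 1 of the 6 arrays. Its change was 0.00 (95% confidence interval -0.2 to 0.19, limma adjusted p = 0.98), so only 1 of the Igll1 probes carried the rise. With the processed signals of the scanner software this second probe was also called, with a log2 change of 1.12 (limma adjusted p = 0.037).

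The signalling pair of the receptor also differed. Cd79b had log2 ratios of -1.54, -1.54 and -1.49 at E14 and of 0.57, 0.58 and 0.67 at E18, a 4.39-fold rise (log2 change 2.13, SE 0.161, limma adjusted p = 7.7e-07). The E14 arrays were below the adult reference and the E18 arrays above it, and both channels detected Cd79b on all 11 arrays. Cd79a, its partner, had log2 ratios of 0.03, 0.13 and 0.04 at E14 and of 0.13, 0.14 and -0.03 at E18. These groups overlapped, and the change was 0.02 (95% confidence interval -0.22 to 0.25, limma adjusted p = 0.91). The Cd79a probe was dim, with 10.4 to 39.4 units of Cy5 signal over background, and was detected on all 3 arrays of E18, none of E14, 1 of P5 and 2 of P56. No other probe read Cd79a.

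Rag1, a subunit of the recombinase, was higher at E18 in both probes that were detected, A_51_P232411 and A_51_P232416. A_51_P232411 had log2 ratios of -0.07, 0.03 and 0.02 at E14 and of 1.3, 1.57 and 1.83 at E18. It was at least 2.98-fold higher at E18 (log2 change 1.58, SE 0.187, limma adjusted p = 3.3e-05). A_51_P232416, printed on 10 spots of each array, had mean log2 ratios of -0.02, 0.01 and 0.03 at E14 and of 1.04, 1.14 and 1.23 at E18. It was at least 2.15-fold higher (log2 change 1.13, SE 0.103, limma adjusted p = 3.7e-06). The lowest single spot at E18 read 0.66 and the highest at E14 read 0.1, so the spots of these stages did not overlap. The SD over the spots of an array was 0.0241 to 0.173, and these spots share their array and RNA. All 10 spots were detected on each E18 array and none on any E14 array.

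Rag2, the other subunit, was not detected on any of the 11 arrays with its single probe, also printed on 10 spots. Its mean log2 ratio was -0.09 to 0.05 over all arrays, and its mean Cy5 signal 2.74 to 7.33 units over background. The third probe of Rag1, A_52_P646895, was also not detected on any array, with log2 ratios of -0.23 to 0.35. The array of E18 replicate 3 had its highest value. Probes that were not detected give no bound on how these transcripts changed, and no fold is given for them.

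**Figure D1:**
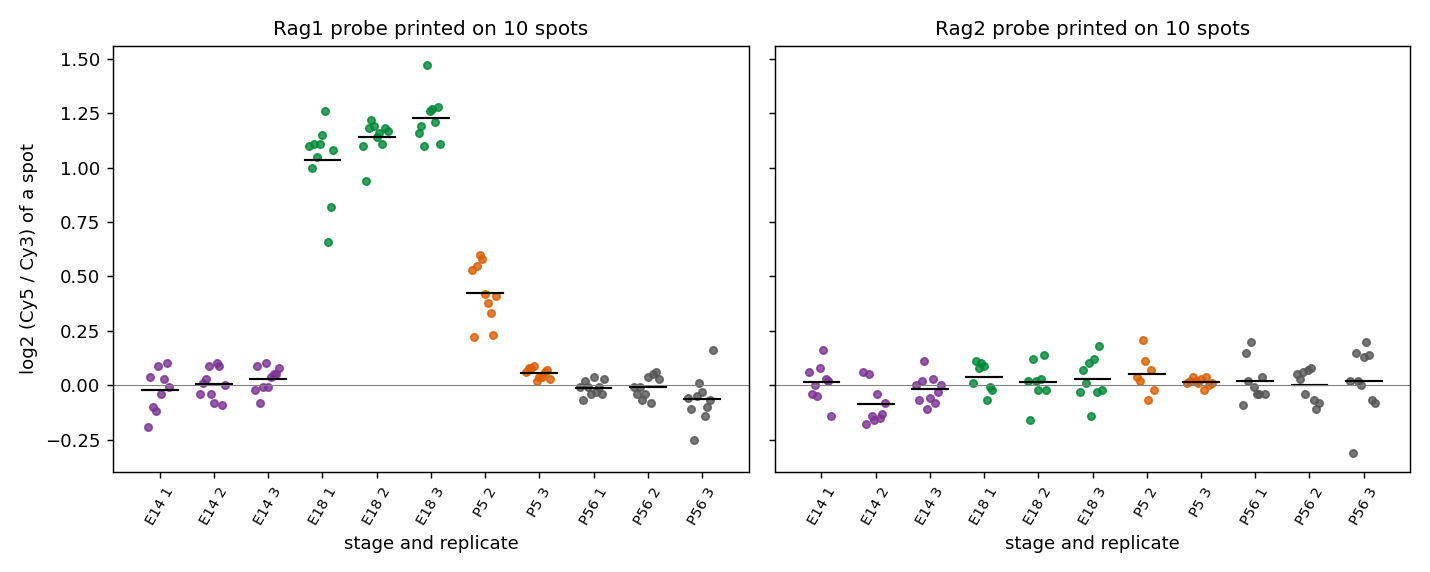
Log2(Cy5/Cy3) of each spot of the Rag1 probe A_51_P232416 (left) and of the Rag2 probe (right) on each of the 11 arrays, named by stage and replicate; a bar is the mean of the spots. The Rag1 spots of E18 read 0.66 or more, those of P5 replicate 2 read 0.22 to 0.6, and those of the other arrays 0.16 or less, while the mean of the Rag2 spots stayed between -0.09 and 0.05.

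Pax5 and Ebf1, the factors that commit a progenitor to the B lineage, each rose in 1 of 2 probes. Pax5 A_52_P429826 had log2 ratios of -0.12, -0.21 and -0.25 at E14 and of 1.23, 0.79 and 1.23 at E18. It was at least 2.37-fold higher at E18 (log2 change 1.28, SE 0.143, limma adjusted p = 2e-05). Ebf1 A_51_P188054 had log2 ratios of -0.06, -0.05 and -0.09 at E14 and of 0.72, 0.66 and 0.61 at E18. It was at least 1.6-fold higher (log2 change 0.73, SE 0.0971, limma adjusted p = 7.8e-05). Neither probe was detected on any E14 array, and both were detected on all 3 E18 arrays. The Pax5 probe A_51_P122855 and the Ebf1 probe A_52_P531838 were not well above background on any array. In the authors' table of log2 ratios per gene, the rise of Pax5 was not called by limma (1.98, adjusted p = 0.075), with 3.1 in E18 replicate 1 and 0.39 and 0.53 in replicates 2 and 3.

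**Figure D2:**
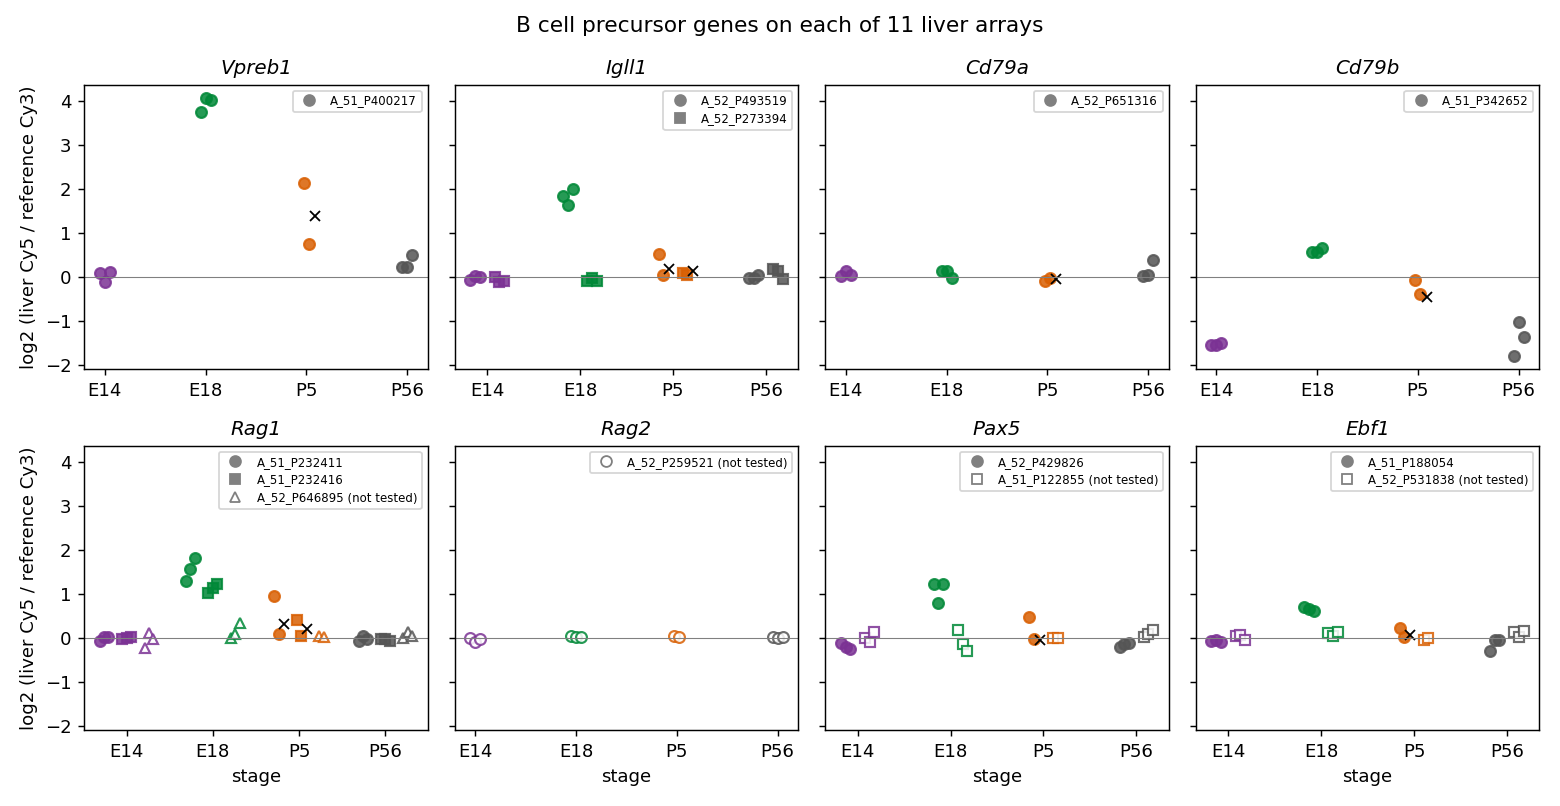
Log2(Cy5/Cy3) of each probe of the 8 genes (vertical axis) on each array, by stage (horizontal axis); marker shapes are probes, open markers are probes that were not tested, and crosses give the 9 tested probes on P5 replicate 3 with the background fitted without spots far under their surroundings. Vpreb1 sits between 3.76 and 4.08 at E18 and at 0.51 or below at E14 and P56, and Cd79a lies between -0.08 and 0.39 throughout.

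The rise was also seen within the scan that held both stages. There, E18 replicate 1 was above the E14 mean by 3.73 for Vpreb1 and by 2.1 for Cd79b on the log2 scale. The difference was 1.86 for Igll1 A_52_P493519, 1.31 and 1.03 for the Rag1 probes, 1.43 for Pax5 and 0.79 for Ebf1. With the scan as a fixed block, the E18 side of this contrast rests on replicate 1 alone, so that fit repeats these differences. In bulk RNA, more cells of a type cannot be told apart from more RNA per cell, and this holds for each comparison of stages here.

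By P5 the genes that had risen were below their E18 level, and 7 of the 9 tested probes were called lower and none higher. These were the 7 probes that rose before. The comparisons share the E18 arrays, so a probe that read high there would both rise and fall. The Rag1, Pax5 and Ebf1 probes also passed the filter only through E18, which favours a fall here. In this comparison 11.9% of all probes were called and 5.73% were called lower. The median change was -0.85, against -0.011 over all probes. Vpreb1 read 2.14 in P5 replicate 2 and 0.75 in replicate 3, both below every E18 array, and fell by 2.51 on the log2 scale (SE 0.292, limma adjusted p = 0.00027). Without the spots far under their background in the fit, replicate 3 read 1.4 and the change was -2.18 (limma adjusted p = 1.4e-05).

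Igll1 A_52_P493519 read 0.53 and 0.06 at P5 and fell by 1.54 (SE 0.141, limma adjusted p = 5.3e-05). Cd79b read -0.07 and -0.39 and fell by 0.84 (SE 0.181, limma adjusted p = 0.012). Both Rag1 probes, Pax5 and Ebf1 were detected on 1 of the 2 P5 arrays. The Rag1 probes fell by 1.04 and 0.89 (limma adjusted p = 0.0083 and 0.00054), Pax5 by 0.85 (limma adjusted p = 0.0056) and Ebf1 by 0.54 (limma adjusted p = 0.0083). All 7 stayed called with the other background fit. Without P5 replicate 3, however, Cd79b, Rag1 A_51_P232411, Pax5 and Ebf1 lost the call, with log2 changes of -0.67, -0.61, -0.6 and -0.43. Fewer of all probes were called in that fit as well. In the authors' table, 2 of the 8 genes were called lower, where 1.04% of its 28050 genes were called in either direction.

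The 2 arrays of P5 were not alike in these genes. Replicate 2 was above replicate 3 by 1.39 for Vpreb1, by 0.86 and 0.37 for the Rag1 probes, by 0.49 for Pax5, by 0.47 for Igll1 A_52_P493519, by 0.32 for Cd79b and by 0.21 for Ebf1. With the other background fit, Vpreb1 read 2.14 and 1.4, Rag1 A_51_P232411 read 0.96 and 0.33, and Cd79b read -0.07 and -0.46. Replicate 2 was again the higher one in these 7 probes, and with the processed signals of the scanner software in all of them but Ebf1 (-0.03). The median gap over all tested probes was 0.01 with the first fit and 0 with the second. Over the 7 tested genes the median gap was 0.47 with the first fit and 0.39 with the second. Lists of other blood cells did not all go the same way. The median gap of 13 T cell genes was -0.7 and -0.46 with the first and second fit and that of 6 NK cell genes -0.6 and -0.54, so replicate 3 was the higher one there. The median gap of 12 erythroid genes was 0.66 with the first fit, with replicate 2 higher in 10 of them, and 0.09 with the second, with replicate 2 higher in 8. Replicate 3 was the dimmer array, with an upper quartile of Cy5 signal over background of 141 units against 266, and the array came from another scan. The part of brightness and scan in this gap was not tested.

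At P56 the probes that had risen read low again. None of the 9 tested probes was called between P56 and E14 by limma, and none reached an unadjusted p under 0.05. In that comparison 68.7% of all probes were called, but only Vpreb1 and Cd79b were detected on every array of both stages. Vpreb1 read 0.24, 0.23 and 0.51 at P56, 0.3 above E14 on the log2 scale with a 95% confidence interval of -0.27 to 0.87. Cd79b read -1.8, -1.02 and -1.36, all below the adult reference, and differed from E14 by 0.13 (95% confidence interval -0.22 to 0.48). When loess was replaced by median centring of each array, Cd79b was lower at P56 than at E14 by limma (-0.71, adjusted p = 0.00018), where that centring moved the median of all probes by -0.31. Igll1 A_52_P493519, both Rag1 probes, Pax5 and Ebf1 were not well above background on any array of E14 or P56. Their missing calls therefore do not show that the levels were equal. The background fit also differed on P56 replicate 2, where Vpreb1 read 0.3 and Cd79b -1.13 with the other fit.

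Against E18, 7 of the 9 probes were lower at P56, where 62.5% of all probes were called and 33.1% were called lower. The passage of some probes through the filter only at E18 favours a fall here too. Vpreb1 fell by 3.62 (SE 0.261, limma adjusted p = 3e-07) and Cd79b by 2 (SE 0.161, limma adjusted p = 7.3e-07). By mean signals, Igll1 A_52_P493519 was at least 3.34-fold lower, the Rag1 probes at least 2.87-fold and 2.06-fold lower, Pax5 at least 2.28-fold lower and Ebf1 at least 1.55-fold lower (limma adjusted p = 2.2e-07 to 2.2e-05). These bounds leave out the spread between arrays. Cd79a differed by 0.08 (95% confidence interval -0.16 to 0.31).

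How much of the E18 expression was left at P5 depended on the background fit. From P5 to P56 limma called 2 probes lower, of which Cd79b fell by 1.17 (SE 0.181, adjusted p = 0.00031) and Vpreb1 fell by 1.12 on the log2 scale (SE 0.292, adjusted p = 0.0089). In this comparison 42% of all probes were called and 22.6% were called lower at P56. Against E14, 3 probes were higher at P5, Cd79b by 1.3, Vpreb1 by 1.42 and Pax5 by 0.43 (limma adjusted p = 0.00011, 0.0018 and 0.045), where 46% of all probes were called and 22.2% were called higher. Pax5 was not detected at E14, so its difference is not exact, and its call was lost when replicate numbers were blocked (limma adjusted p = 0.063), with scans as a random block (limma adjusted p = 0.061), with array weights, with no filter on dim probes and without any of 7 single arrays (limma adjusted p = 0.41 without P5 replicate 2). With the other background fit 6 probes were called in each of these comparisons, where 49.3% of all probes were called and 26.7% were lower at P56, and 45.5% were called and 22.7% were higher at P5 than at E14. They were Vpreb1, Cd79b, Igll1 A_52_P493519 and both Rag1 probes in both, with Ebf1 against P56 and Pax5 against E14. Vpreb1 then stood 2.67-fold above P56 and 3.35-fold above E14 (limma adjusted p = 4.8e-05 and 8.8e-06). The P5 values also rest on single arrays. Without replicate 3, Rag1 A_51_P232411 changed by -0.96 from P5 to P56, against -0.53 with both P5 arrays. Within the scan they shared, the P56 mean minus P5 replicate 3 was -1 for Cd79b and -0.42 for Vpreb1 with the first fit, and -0.97 and -1.05 with the other. With the scan as a fixed block the call of Vpreb1 against P56 was lost (-0.42, limma adjusted p = 0.069), as it was without P5 replicate 2 (-0.42, limma adjusted p = 0.094).

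**Figure D3:**
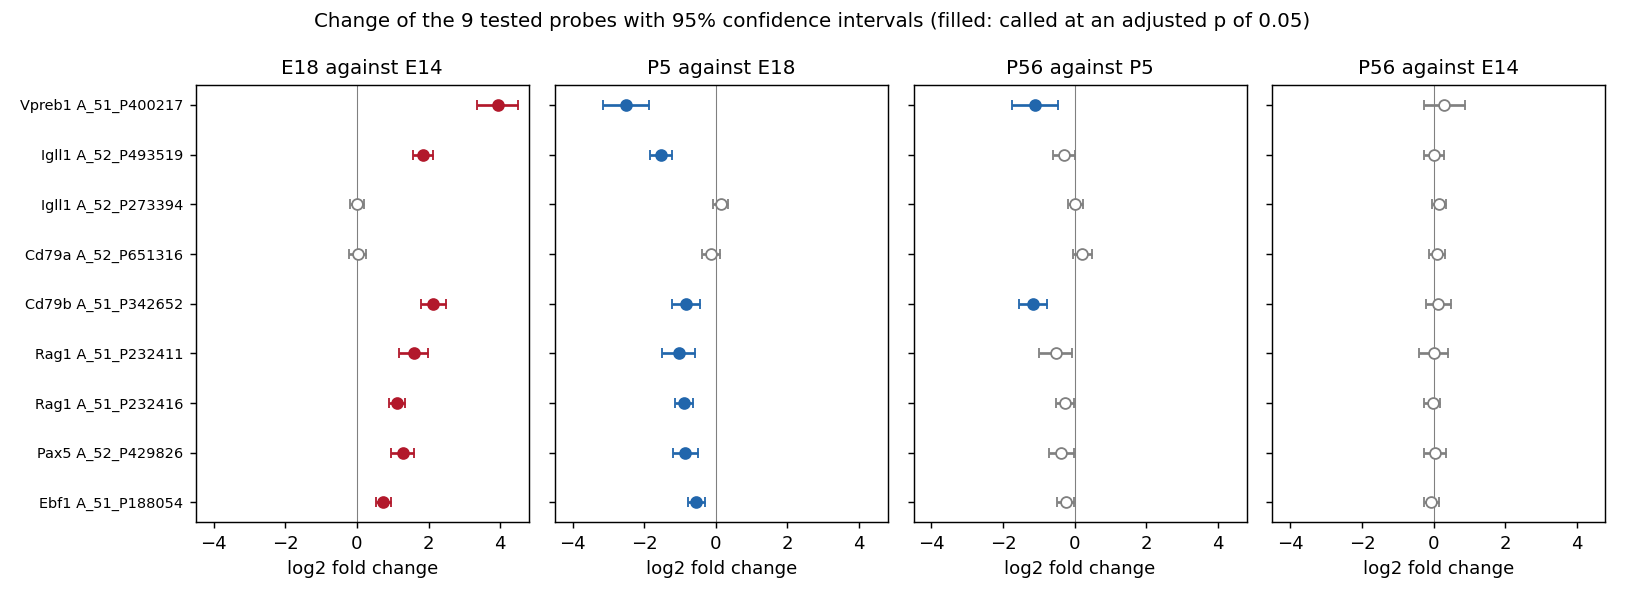
Log2 fold change (horizontal axis) of the 9 tested probes in 4 comparisons, with 95% confidence intervals from limma over 11 arrays; filled points passed an adjusted p of 0.05, red where the first stage named was higher and blue where it was lower. The same 7 probes are filled in the first and second panels, 2 in the third and none in the fourth.

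Other genes of the pathway were taken from lists of genes known to act with the 8 genes. Of 23 tested genes of the pre-B receptor, its surface partners and its signalling, 15 rose from E14 to E18 and none fell, with a median of 0.49 on the log2 scale. Over all probes, 22.3% were called higher in this comparison and 22.2% lower. Vpreb3, a relative of Vpreb1, rose by 3.07 (SE 0.217, limma adjusted p = 4.4e-07), and Blnk, the adaptor that carries the receptor signal, rose by 2.66 (SE 0.151, limma adjusted p = 7e-08). Bst1 and Ptpn6 rose by 1.42 and 1.05. Vpreb2 had its own probe and rose by 0.49 (limma adjusted p = 0.0023), and Il7r, the receptor for the main growth factor of these cells, rose by 0.72 (limma adjusted p = 2e-04). Il7r, Mme, Cd22 and Arpp21 were detected in Cy5 on at most 3, 3, 4 and 4 arrays. They cannot have been detected on all arrays of both E14 and E18, so their changes between these stages are not exact. Through which stage they passed the filter was not examined. Passage only through E18 would favour a rise in the count and median of this list. Kit and Flt3, receptors of earlier progenitors, changed by 0.14 and -0.03 and were not called.

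Of 14 B lineage regulators, 7 rose and 2 fell, with a median of 0.39, where 22.3% of all probes were called higher. Irf4, Ikzf3 and Spib were detected in Cy5 on at most 3, 4 and 5 arrays, so the same limit holds for them. Pou2af1, a B cell coactivator, rose by 3.23 (SE 0.229, limma adjusted p = 4.5e-07), Foxo1 by 1.8, Lef1 by 1.56 and Irf8 by 1.38. Tcf3, which encodes E2A, fell by 0.4 and Sox4 fell by 0.38. Of 12 partners of the recombinase in DNA cutting and joining, none rose and 3 fell, namely Xrcc6 (-0.51), Poll (-0.46) and Hmgb1 (-0.46), while 22.2% of all probes were called lower in this comparison. Most of these genes repair DNA in all cells. Dntt, which adds bases at the joints and is specific to lymphocytes, changed by 0.24 and was not called.

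Among 8 tested genes of mature B cells and immunoglobulin, 4 rose from E14 to E18 and none fell, where 22.3% of all probes were called higher. Ighm, the mu heavy chain that joins the pre-B receptor, rose by 3.69 (SE 0.165, limma adjusted p = 1.3e-08). Tnfrsf13c, Ms4a1 and Tnfrsf13b rose by 0.98, 0.92 and 0.71. From E18 to P5 Ms4a1, which encodes CD20, rose by a further 0.93 and Tnfrsf13c by 0.8 (limma adjusted p = 0.024 and 0.027), while Ighm fell by 1.16 and Vpreb3 by 1.68 (limma adjusted p = 0.0021 and 0.0011). With the other background fit these changes were 0.87 for Ms4a1, 1.23 for Tnfrsf13c, -1.18 for Ighm and -1.56 for Vpreb3, and all 4 stayed called. Of 5 tested genes of the niche, Vcam1 rose by 1.65 and Cxcr4 by 1.17 from E14 to E18 and Kitl fell by 0.56. Il7 was not detected in Cy5 on any array with its 3 probes.

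Genes of other blood cells and of hepatocytes changed over the same interval. All 9 neutrophil genes (median 3.16), all 11 macrophage genes (median 1.29) and all 10 genes shared by leukocytes (median 0.89) were higher at E18 than at E14, as were all 8 hepatocyte genes (median 2.78). S100a9 rose by 4.46, Cd52 by 1.93, Marco by 1.77 and Alb by 2.62. Of 13 T cell genes, only Cd3e was higher, by 0.45, and of 6 NK cell genes 3 were, Gzma, Gzmb and Nkg7. Of 12 erythroid genes 3 were higher, Slc4a1, Hbb-b1 and Hba-a1, and Klf1 and Epor were lower. Beside these lists, 22.3% of all probes were called higher and 22.2% lower, so the erythroid count of higher genes was near that share. The log2 of the summed Cy5 signal of the leukocyte genes was 12.73 to 12.9 at E14, 13.8 to 13.86 at E18, 13.23 and 13.54 at P5 and 11.69 to 12.37 at P56, and that of the neutrophil genes 14.03 to 14.42, 16.86 to 16.93, 16.08 and 16.82, and 10.92 to 11.49. Over the E14 arrays, labelled hepatoblasts, Hbb-b1 was at a log2 ratio of 3.9, above the adult reference, and Alb at -1.73, below it. Genes of neutrophils, of macrophages and of leukocytes in general thus rose over the interval in which 6 of the 8 genes rose, whereas the T cell and erythroid lists had medians of -0.01 and -0.06. The part of these other cells in the result was not tested.

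**Figure D4:**
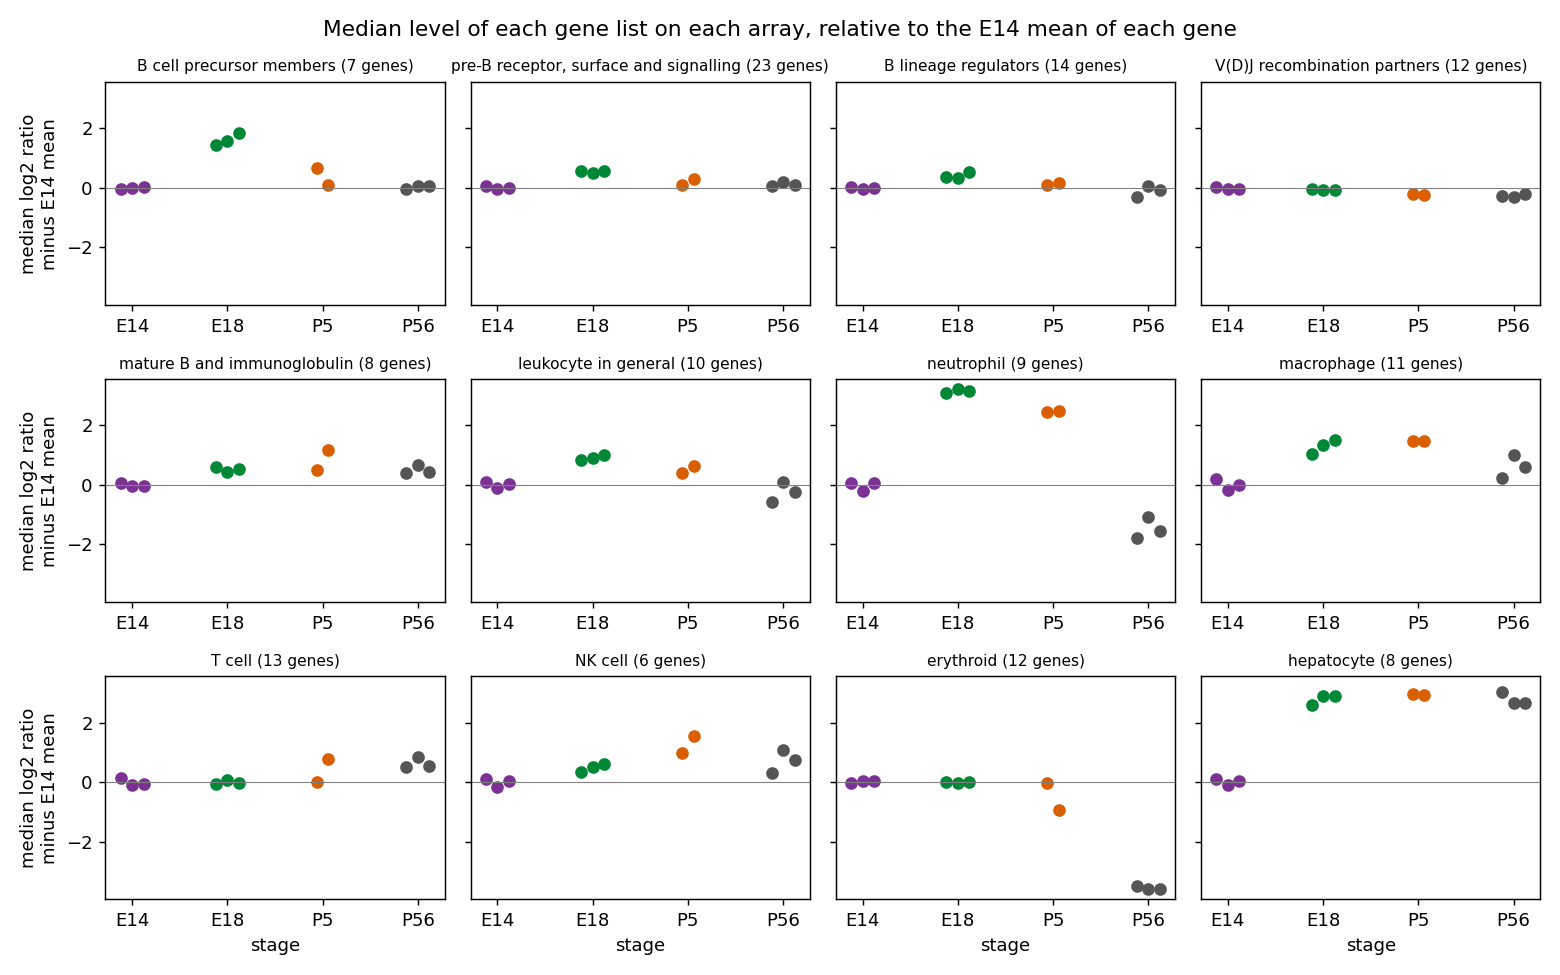
Median over the genes of a list of log2(Cy5/Cy3) minus each gene's E14 mean (vertical axis), for each array by stage (horizontal axis), with the number of tested genes in each title. The B cell precursor genes sit at 1.43 to 1.84 at E18 and at 0.07 or below at P56, the T cell and erythroid lists stay near 0 at E18, and the neutrophil and hepatocyte lists are well above 0 there.

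The 7 tested genes were alike in their pattern except Cd79a. Pearson's r with their mean profile over the 11 arrays was 0.935 to 0.983 for the other 6 and 0.057 for Cd79a. Each gene is part of that mean, and Rag1, Pax5 and Ebf1 passed the filter only through E18, so high values are partly built in. These values also share their arrays and are a description. Among 16441 genes with a value on every array, these 7 included, the 6 others most like this mean profile were Myadm (r = 0.983), Il1r2 (0.98), A530064D06Rik (0.979), the transcript ENSMUST00000056822 (0.974), Mmp9 (0.973) and D1Ertd161e (0.973). Il1r2 and Mmp9 are abundant in neutrophils, and Myadm takes its name from myeloid differentiation. From E14 to E18 these genes differed by 1.26 for Myadm, 0.89 for Il1r2 and 1.88 for Mmp9 on the log2 scale. Vpreb3, at r = 0.97, was the closest gene of the B lineage lists.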

How the data were processed

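RNA of 11 samples labelled as normal mouse liver was measured against a common adult liver reference. The deposited scanner files hold intensity values per spot and channel from Agilent Feature Extraction 9.5.1.1, together with the local background and marks of spot quality, and are not normalized. A second deposited table gives log2 ratios per gene after the authors' lowess normalization and served as an alternative. In the submitters' processing notes limma is named. Probe positions follow the build of the array files, mm7. Upstream windows are RefSeq sequence on GRCm38.p6.

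Mean spot signals were corrected for median local background by normexp with an offset of 50 and normalized by loess within each array. Control spots and spots marked as outliers did not enter, and replicate spots were averaged. Only probes that every array of some stage detected in Cy5 were tested, with at most 1 missing value in each of the 4 stages. A linear model of the 4 stages was fitted to all 11 arrays (limma 3.58.1, R 4.3.3, moderated by eBayes), p-values of each of 6 comparisons were adjusted over 23525 probes by Benjamini-Hochberg, and the threshold was 0.05. Where a probe was not well above background on any array of a stage, a bound on its fold was computed. It used, per array, the lowest Cy5 signal of probes well above background, or the probe's own Cy5 reading where that was higher. Stage means entered it, and the spread between arrays did not. Signals were taken after loess and Aquantile, which is open to dye bias because no dyes were swapped.

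The 8 genes and the gene lists were chosen with earlier results of these data known. Every probe of the 8 genes is reported. For each list and comparison the genes named are up to 4 with the largest change among those called whose groups did not overlap, up to 2 bright genes of each list of other cells, and the 6 genes most like the mean profile. Vpreb2, Il7r, Kit, Flt3, Dntt, Il7 and Vpreb3 in the last paragraph, and members of short counts, were named after their values were seen. A gene of a list was read by its brightest probe. On simulated data drawn with the probes' own spread, 20% of 200 probes changed by 0.5 and 91.5% of those changed by 1 were recovered for E18 against E14, and 11.5% and 84.5% for P5 against E18, among 23525 probes. Replicate numbers were checked for pairing, and correlations of deviations between arrays of the same number were -0.33 to 0.2 over 15 pairs, so the numbers were not taken to pair. Alternatives were other background corrections and normalizations, other filters, the authors' table, blocks of replicate number or scan, array weights, the methods' t-test and each array left out. Tumor arrays were not analysed here. The figures used matplotlib 3.10.9 (Python 3.11.15).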

Additional observations from a re-analysis of the deposited data

How the results depend on the processing

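From E14 to E18, 7 probes were called under every other setting except processed signals (8), the brightest probe per gene (6 of 7 genes), the authors' table (5 of 8 genes) and the filter that required detection on all arrays. That filter left 2 probes, Vpreb1 and Cd79b, and called 2 there, as from E18 to P5 and from E18 to P56. Counts for P56 against P5, 2 in the report, were 6 without background correction, 6 with an offset of 10, 6 with the background fitted without spots far under their surroundings, 7 with the scanner software's processed signals, 1 with the scan as a fixed block and 1 and 0 by the methods' t-test at an unadjusted p under 0.05 and after Benjamini-Hochberg. Counts for P5 against E14, 3 in the report, were 7, 6 and 8 without background correction, with that fit and with processed signals, and 1 and 1 by the methods' t-test. For P56 against E14, 0 in the report, they were 1 without background correction, 2 with processed signals, 1 with median centring, 1 with Cy5 alone and 1 in the authors' table, and 0 by the methods' t-test before and after adjustment. For P5 against E18, 7 in the report, they were 2 in the authors' table and 0 by the methods' t-test after Benjamini-Hochberg. Leaving out each array gave 7 to 7 calls for E18 against E14, 3 to 7 for P5 against E18, 1 to 7 for P56 against P5, 7 to 8 for P56 against E18, 0 to 1 for P56 against E14 and 2 to 6 for P5 against E14. The extremes came without P5 replicate 2 (1 call for P56 against P5) and without P5 replicate 3 (3 for P5 against E18, 7 for P56 against P5, 6 for P5 against E14), and without P56 replicate 3 (8 for P56 against E18). The 2 calls for P5 against E14 came without any of 7 arrays, P5 replicate 2 among them. For P56 against E14 1 call came without P5 replicate 2, P5 replicate 3, P56 replicate 1 or P56 replicate 3. A lone P5 array was assumed to vary like the other stages. The number of all probes called changed with these settings as well, so the counts do not describe these genes alone. For P56 against P5, 9879 of 23525 probes were called in the report. Without background correction, with an offset of 10, with the other fit and with processed signals they were 12245, 9925, 11587 and 12363. For P5 against E14 they were 10824 in the report, and 11088, 10697 and 10935 without correction, with the other fit and with processed signals. After Benjamini-Hochberg the methods' t-test called 29 for P5 against E18, where the report called 2808.

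Among changes called in the report or under the other setting, the direction turned in 2 cases. These were Igll1 A_52_P273394 from E14 to E18, 1.12 with processed signals, and Cd79b between E14 and P56, -0.71 with median centring. That centring moved the median of all probes by -0.41 for P56 against P5, -0.39 for P56 against E18 and -0.31 for P56 against E14. The causes were not tested. Of 762 log2 changes under the other settings 690 either kept their direction and call or were called in neither setting. Direction was not compared for changes called in neither. With the replicate number as a replicate block the counts were 7, 7, 2, 7, 0 and 2 in the order E18 against E14, P5 against E18, P56 against P5, P56 against E18, P56 against E14 and P5 against E14, and Pax5 at P5 against E14 lost its call (adjusted p = 0.063). The scan as a random block and the fit without spots far under their background were chosen after seeing the data. The scan block (correlation 0.198) gave the same counts as the replicate block. The scan as a fixed block could be fitted only for E18 against E14 and P56 against P5. Those contrasts then rest on E18 replicate 1 and on P5 replicate 3 alone. Dim signal limits Cd79a, Rag2 and the undetected probes of Rag1, Pax5 and Ebf1.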
